A study of Arabidopsis thaliana with 2 samples.

Results

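The subject is the alpha-expansin genes of Arabidopsis thaliana, followed in the shoots of the transgenic line GFP-TIE1-15 and of wild type. The genes were given as 10 symbols, and a probe set belonged to the group if the platform annotation assigned it to a gene carrying any of them. Of these genes, 8 could be named on the array, among 13286 genes that could. EXPA6 and EXPA13 had no named probe set, so their levels were not analysed here. The members were described as 6 shoot genes (EXPA4, EXPA8, EXPA9, EXPA15, EXPA16 and EXPA20) and 2 root-hair genes (EXPA7 and EXPA18).

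Expansins are small secreted proteins of the plant cell wall. At acid pH they loosen the contacts between cellulose and the polysaccharides around it, without cutting them, so that a wall under turgor can extend. The family has alpha-expansins (EXPA), beta-expansins (EXPB) and expansin-like genes (EXLA and EXLB). Alpha-expansins are best known for their part in acid-induced growth and in the expansion of leaves, hypocotyls and root hairs, and their transcripts often follow auxin, gibberellin and brassinosteroid. EXPA7 and EXPA18 are expressed in the root epidermis cells that form hairs.

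RNA came from the aerial parts of 14-day-old seedlings, with 1 array for GFP-TIE1-15 and 1 for wild-type Columbia-0. Seeds of both genotypes were chilled on plates at 4 °C for 3 days, and the seedlings then grew at 22 ± 2 °C in days of 16 h light and 8 h dark. GFP-TIE1-15 carries a transgene of TIE1 fused to green fluorescent protein. TIE1 is known as a protein that links TCP transcription factors, which act in leaf growth, to TOPLESS corepressors. The comparison asks which transcripts differ between shoots of the line and of wild type. It rests on a single transgenic line, and the sources used here give neither the promoter of the transgene nor the number of seedlings behind each array. The level of TIE1 was not analysed here, so the labels were not checked against it.

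Each deposited value is the linear intensity signal of a probe set. The median signal was 173.05 for GFP-TIE1-15 and 169.3 for wild type over 22810 probe sets, and the means after trimming 2% at each end were 500.05 on both arrays. A log2 ratio is GFP-TIE1-15 over wild type, taken after 50.0 was added to each signal, which makes differences of dim genes look smaller. A probe set counted as measured if its brighter array reached a signal of 200.02, and 11308 did. Each genotype had a single array, so no test, p-value, SD or replicate check was possible, and the number of arrays limits the precision of every value. A signal depends on the probes as well as the transcript, so levels of different genes were not ranked.

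All 6 shoot alpha-expansins were measured, and 5 of them had a higher signal in GFP-TIE1-15 than in wild type. EXPA20, EXPA15, EXPA4 and EXPA16 stood, with the pseudocount added, at 1.91-fold, 1.53-fold, 1.41-fold and 1.24-fold the wild-type level, while EXPA9 and EXPA8 stood at 1.05-fold and 0.972-fold. The median log2 ratio over the 6 genes was 0.40, a fold of 1.32, against a median of 0.01 over all measured probe sets. None of the 6 reached 2-fold in either direction with this pseudocount, but EXPA20 did with a pseudocount of 1, and its signals as deposited differed 2.37-fold. For EXPA20 only the GFP-TIE1-15 array reached the minimum, and of the other 5, 4 were higher in the line with a median of 0.31, a split added after the values were seen. Across the array 1.20% of measured probe sets passed 2-fold on the higher side and 2.39% on the lower, so a count of 0 among 6 is near that background. A log2 ratio above 0 was found for 51.5% of all measured probe sets and a ratio below 0 for 48.5%. In whole shoots, a change in the number of cells that express a gene and a change in RNA per cell cannot be told apart. Nor can the genotype and the plants sampled.

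**Figure D1:**
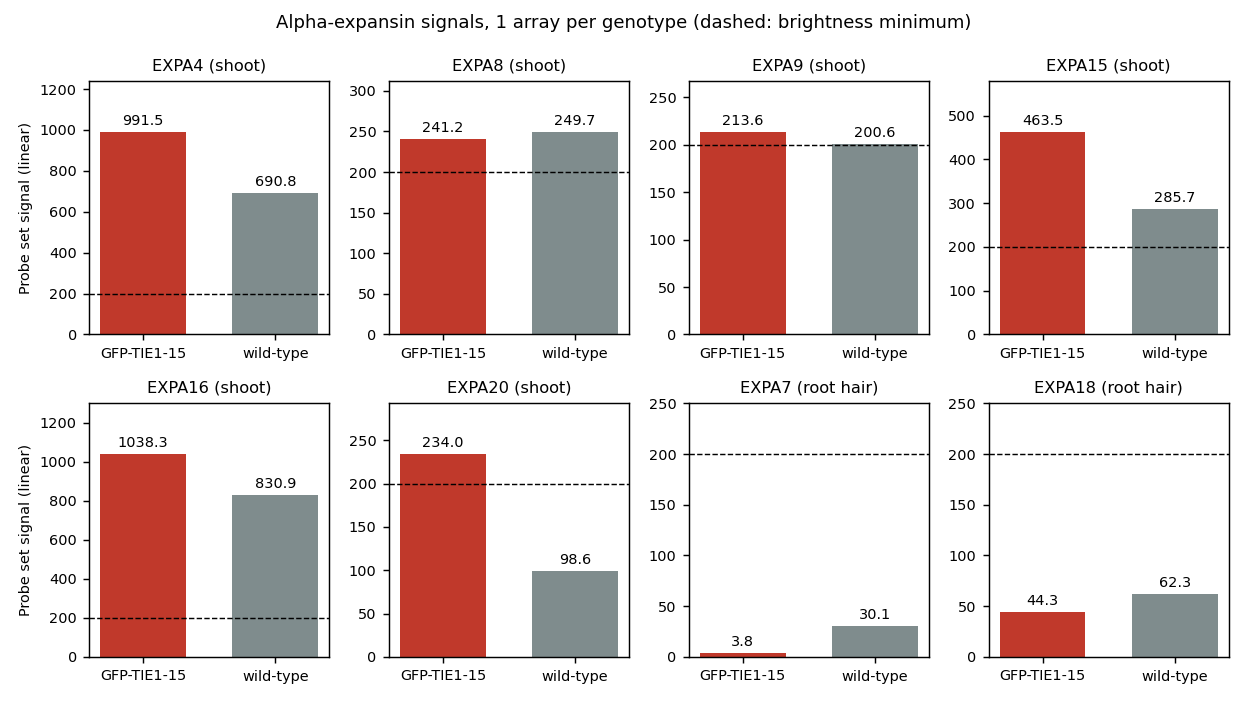
Signal of each alpha-expansin probe set (linear scale, one panel per gene with its own axis from 0) in GFP-TIE1-15 (red, left) and wild type (grey, right), with the brightness minimum of 200.02 dashed. The red bar is the taller for 5 of the 6 shoot genes, EXPA8 has nearly equal bars, and both root-hair genes lie below the minimum.

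EXPA20 had a signal of 234.0 in GFP-TIE1-15 and 98.6 in wild type. The log2 ratio was 0.93, the furthest from 0 among the 8 members on this scale. Only the GFP-TIE1-15 array reached the brightness minimum for this gene, so the filter itself fixed the sign of its ratio. The ratio also depended on the pseudocount, at 1.24 when 1 was added to the signals and 0.68 when 25% of the trimmed mean was added. It therefore passed 2-fold in the first of these settings and in none of the other 5. Of the 500 probe sets nearest to it in mean signal, whether measured or not, 1.0% had a ratio at least as high.

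EXPA15 had a signal of 463.5 in GFP-TIE1-15 and 285.7 in wild type, a log2 ratio of 0.61. Both arrays reached the minimum. A ratio at least as high was found in 5.8% of the 500 probe sets of nearest signal, and in 6.29% of all measured probe sets. EXPA15 was the only 1 of the 5 members at the minimum on both arrays with a log2 ratio of at least 0.5, a size that 9.72% of measured probe sets reached. EXPA20, with the sign fixed by the filter, also had that size. No member had a ratio of -0.5 or below among the 6 measured, against 9.05% of measured probe sets.

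EXPA4 and EXPA16 were well clear of the brightness minimum on both arrays. EXPA4 had a signal of 991.5 in GFP-TIE1-15 and 690.8 in wild type, a log2 ratio of 0.49. A ratio this high or higher was found for 10.2% of its 500 nearest probe sets. For EXPA16 the signals were 1038.3 in GFP-TIE1-15 and 830.9 in wild type, a log2 ratio of 0.31, with 16.8% of nearest probe sets at least as high. These 2 genes were the only members above the trimmed mean of the arrays, and their ratios moved by at most 0.04 between the pseudocounts and scalings tried.

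EXPA9 and EXPA8 were nearly level between the arrays. EXPA9 had 213.6 in GFP-TIE1-15 and 200.6 in wild type, a log2 ratio of 0.07, and its wild-type signal lay just above the brightness minimum. EXPA8 had 241.2 in GFP-TIE1-15 and 249.7 in wild type, a log2 ratio of -0.04. Both lay within 1 local SD, the robust spread of log2 ratios among the 500 probe sets of nearest signal, which was 0.35 at the signal of EXPA9 and 0.33 at that of EXPA8. This spread is among genes and says nothing of the variation between plants.

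**Figure D2:**
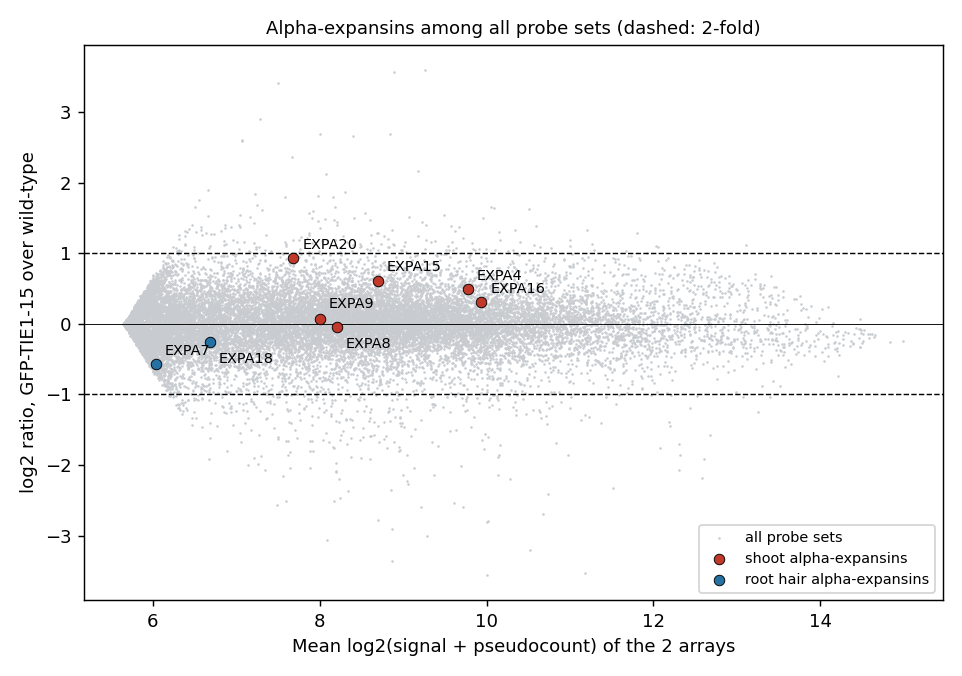
Log2 ratio, GFP-TIE1-15 to wild type (vertical) against the mean log2(signal + pseudocount) of the 2 arrays (horizontal) for all probe sets (grey), shoot alpha-expansins (red) and root-hair alpha-expansins (blue), with 2-fold dashed. The shoot members run from -0.04 for EXPA8 to 0.93 for EXPA20, all inside the 2-fold lines.

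On the same scale of local SDs, EXPA20 lay 2.78 above the median of its nearest probe sets, EXPA15 1.84, EXPA4 1.67 and EXPA16 1.12. EXPA20 passed the filter only through the GFP-TIE1-15 array, while its nearest probe sets were taken whether measured or not. Nothing is therefore read from its place at the head of this order. None of the 6 lay beyond 3 local SDs, as 1.43% of measured probe sets did on the higher side. The shoot members thus ranged over 0.98 in log2 ratio, from nearly equal signals for EXPA8 and EXPA9 to nearly 2-fold for EXPA20.

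The direction of each member was the same under every scaling tried. Adding the same pseudocount to both signals cannot turn the sign of a ratio, so the pseudocounts did not test direction. After quantile normalization the shoot median was 0.40, with 5 of 6 above 0. After division of each array by its median it was 0.37, and after removal of a loess trend 0.38, again with 5 of 6 above 0. The 5 include EXPA20, whose sign the filter fixed. The lowest shoot value under these scalings was -0.08, for EXPA8 after the loess correction.

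**Figure D3:**
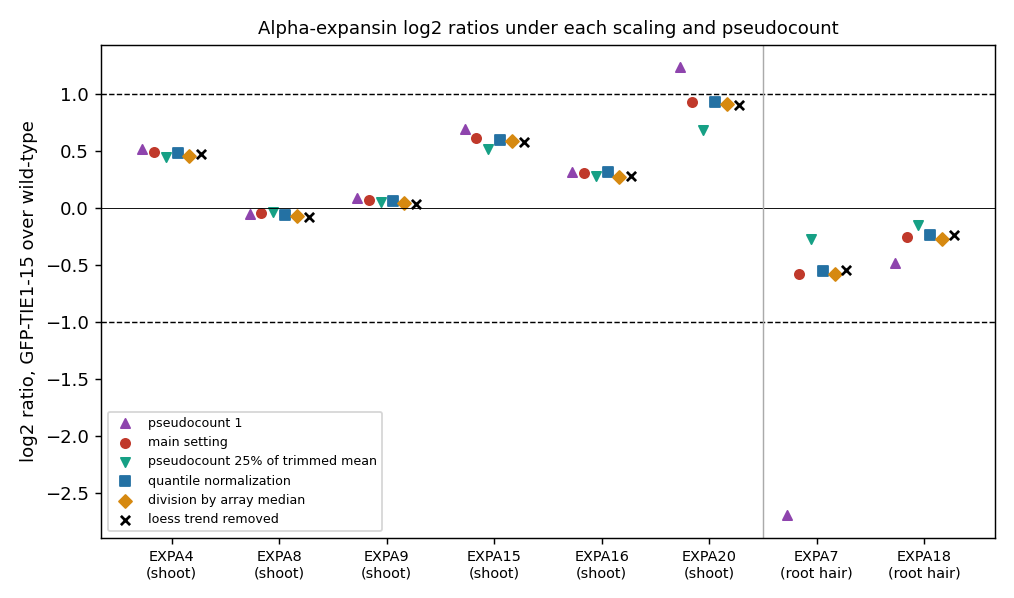
Log2 ratio, GFP-TIE1-15 to wild type, for each alpha-expansin (horizontal, shoot genes left of the grey line) under 6 settings of scaling and pseudocount (symbols), with 2-fold dashed. The symbols nearly coincide for EXPA4, EXPA8, EXPA9 and EXPA16, and spread out for EXPA20 and most for EXPA7, which ran from -2.70 to -0.27.

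The root-hair genes EXPA7 and EXPA18 were below the brightness minimum on both arrays. EXPA7 had a signal of 3.8 in GFP-TIE1-15 and 30.1 in wild type, and EXPA18 had 44.3 in GFP-TIE1-15 and 62.3 in wild type. Both values of each gene were far under the array medians. The log2 ratio of EXPA7 was -0.57, but -2.70 when 1 was added and -0.27 when 25% of the trimmed mean was added, so its size was set by the constant added. Among the 500 probe sets of nearest signal, 89.0% had a ratio at least as high as that of EXPA7 and 74.4% one at least as high as that of EXPA18 (-0.25). The local SD at these signals was 0.50 for EXPA7 and 0.36 for EXPA18. With signals this dim and no detection calls used, neither gene was read as differing between the genotypes.

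The labelled tissue, aerial parts, was set against marker genes. Of 19 listed root-hair markers, 3 had a named probe set, and none was measured. XTH26, a root-hair xyloglucan enzyme, had 0.9 in GFP-TIE1-15 and 2.6 in wild type, and the summed signal of the 3 was 49.0 in GFP-TIE1-15 and 95.0 in wild type. None was at exactly 0. By contrast PYK10, a beta-glucosidase of ER bodies that is abundant in roots and also known from seedling shoots, had 5954 in GFP-TIE1-15 and 6746 in wild type. It was the only 1 of 9 listed root markers with a named probe set. Leaf markers were bright, with LHCB4.1, a light-harvesting protein, at 20353 in GFP-TIE1-15 and 25525 in wild type.

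The 4 measured markers of leaf cell types were lower in the line, as were 48.5% of all measured probe sets. Of 15 listed mesophyll markers 2 were named and both were measured, with a summed signal of 36981 in GFP-TIE1-15 and 46720 in wild type. The log2 ratio was -0.33 for LHCB4.1 and -0.35 for RCA, the activase of Rubisco, and -0.15 and -0.12 after quantile normalization. Of 7 listed guard cell markers 2 were measured, with a summed signal of 3295 in GFP-TIE1-15 and 5870 in wild type. FMA, the guard cell regulator FAMA, was at -0.51 and GC1 (AT1G22690), whose promoter is active in guard cells, at -0.84. None of these 4 was at 0 on either array. No epidermis or shoot meristem marker had a named probe set. The part of cell makeup in the expansin values was not tested.

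Expansins outside the members were mostly unnamed or dim. Of 26 further genes of the family, 10 could be named, and 3 of these were measured, of which 2 were higher in GFP-TIE1-15 without reaching 2-fold and 1, EXLB1, was at least 2-fold lower. Across the array 2.39% of measured probe sets were at least 2-fold lower. The median log2 ratio of the 3 measured genes was 0.41. The 2 genes that reached the minimum on both arrays, EXLA1 and EXPB3, both lay above 0.

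EXLA1, an expansin-like gene, had 1297 in GFP-TIE1-15 and 949.4 in wild type, a log2 ratio of 0.43. The beta-expansin EXPB3 had 430.4 in GFP-TIE1-15 and 312.7 in wild type, a log2 ratio of 0.41. Both values fall between those of EXPA16 and EXPA4. EXLB1, the expansin-like gene of the B group, had 153.2 in GFP-TIE1-15 and 507.6 in wild type. Its log2 ratio was -1.46, a level 2.74-fold higher in wild type, and 99.4% of the 500 probe sets of nearest signal had a ratio at least as high. Only the wild-type array reached the minimum for EXLB1, so the filter fixed its sign. The ratio was -1.72 with a pseudocount of 1.

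Of the further alpha-expansins, 14 had no named probe set, and the 2 that had one gave little signal. Of the 16 other alpha-expansin genes, 2 had a probe set of their own, EXPA21 with 6.4 in GFP-TIE1-15 and 2.9 in wild type, and EXPA24 with 19.0 in GFP-TIE1-15 and 2.0 in wild type. They belong to a run of neighbouring expansin genes on chromosome 5, some of which share probe sets that were left unnamed. The dim members of the other groups were EXPB1, with 60.9 in GFP-TIE1-15 and 83.6 in wild type, EXPB2, EXPB5, EXLA2 and EXLA3. EXLA2 was level, with 152.2 in GFP-TIE1-15 and 153.9 in wild type. EXLA3 (11.3 in GFP-TIE1-15 and 6.1 in wild type) lies next to EXLA1 in the genome.

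Xyloglucan endotransglucosylase/hydrolases (XTH) cut and rejoin xyloglucan, the polysaccharide that coats cellulose. Of 33 listed XTH genes 10 could be named, and 5 of these were measured. None was at least 2-fold higher in GFP-TIE1-15, 1 was at least 2-fold lower and 4 were neither, and their median log2 ratio was 0.00. The same 2-fold limit picked out 1.20% of everything measured on the array as higher and 2.39% as lower. A list of 5 genes is too short to be told apart from shares of this size. XTH33 had 521.9 in GFP-TIE1-15 and 367.1 in wild type, a log2 ratio of 0.46, close to that of EXPA4. XTH27 (listed as EXGT-A3) was at 0.18 and XTH16 at -0.15.

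XTH19 had 104.9 in GFP-TIE1-15 and 444.1 in wild type, a log2 ratio of -1.67, or 3.19-fold higher in wild type. Only the wild-type array reached the minimum. Its neighbour in the genome, XTH18, was level, with 136.5 in GFP-TIE1-15 and 135.9 in wild type. XTH19 and EXLB1 were the only 2 measured genes of the expansin and XTH lists with a 2-fold difference. Since the filter fixed the sign of both, nothing is read from their direction. Over the 4 XTH genes at the minimum on both arrays the median was 0.09.

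Other listed wall genes had few named probe sets. Of 14 pectin methylesterases, which remove methyl groups from pectin, 2 were measured. PME61 had 164.8 in GFP-TIE1-15 and 245.8 in wild type (-0.46), a sign that the filter fixed because only wild type reached the minimum, and PME41 had 359.6 in GFP-TIE1-15 and 400.9 in wild type (-0.14). COB, a membrane-anchored protein that orients cellulose deposition, was the only 1 measured of 13 cellulose genes, with 3073 in GFP-TIE1-15 and 3737 in wild type (-0.28). Of 5 receptor kinases that monitor the wall, FER was at -0.26 and THE1 at 0.22, and ANX1 and ANX2 were below the minimum. No plasma membrane H+-ATPase, SAUR gene, extensin or endo-beta-mannanase had a named probe set, so the proton pumps that acidify the wall were not analysed here.

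**Figure D4:**
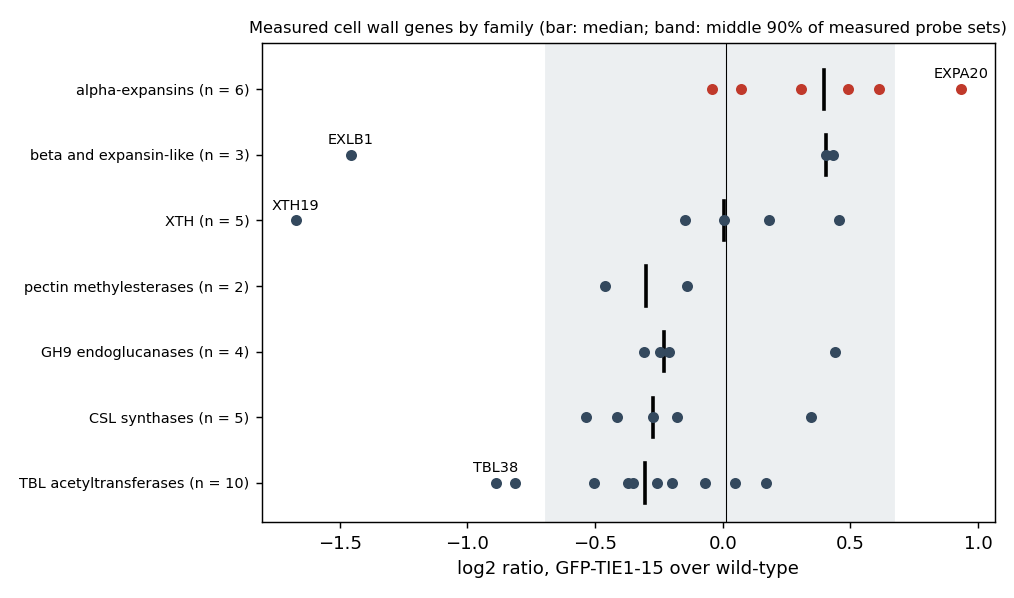
Log2 ratio, GFP-TIE1-15 to wild type (horizontal) for each measured gene of 7 cell wall families (rows, points), with the family median as a bar and the middle 90% of measured probe sets (-0.69 to 0.67) as a grey band. EXPA20 lies right of the band, EXLB1, XTH19 and the acetyltransferase genes TBL38 and TBL37 lie left of it, and every other point is inside. Of the points outside the band, only TBL37 reached the brightness minimum on both arrays, so the filter fixed the sign of the others.

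The genes around the expansins were also looked up, taking 2 protein-coding genes on each side of each member in the reference gene table. Of 32 such positions, 15 had a gene with a named probe set, and 10 of those were measured. Their log2 ratios ran from -0.40 to 0.72 with a median of 0.05, 6 lay above 0 and none was 2-fold apart. Of all measured probe sets, 51.5% lay above 0, 1.20% were at least 2-fold higher and 2.39% at least 2-fold lower. Among the 6, the sign of AT2G39710 near EXPA4 (0.67) was fixed by the filter, since only GFP-TIE1-15 reached the minimum. RBL, the gene next to EXPA16, had 420.8 in GFP-TIE1-15 and 236.3 in wild type (0.72), a larger ratio than that of EXPA16 itself. Next to EXPA20, AT4G38200 was at 0.08, and the gene beyond the other neighbour, AQI (AT4G38220), was at 0.10. For EXPA8, the flanking genes AT2G40600 and AT2G40620 were at -0.40 and -0.39, with EXPA8 itself at -0.04. Only the wild-type array reached the minimum for AT2G40620, so the filter fixed its sign.

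EXPA4, EXPA8 and EXPA15 are on chromosome 2, EXPA16 on chromosome 3, EXPA20 on chromosome 4 and EXPA9 on chromosome 5, and no measured shoot member lies within 2 protein-coding genes of another. EXPA7 and EXPA18 are both on chromosome 1. Each of the 8 members had 1 probe set, of the type specific to 1 gene, so none has another probe set to set beside its value.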

How the data were processed

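Transcript signals were measured on 1 array per genotype. GCOS 1.0 and MAS5 made the signals, per the submitters' processing notes. The deposited values are linear intensity signals, used as deposited because their trimmed means were equal. The scaling target is not given in the sources used here, and no detection calls were used, so signal over background limits dim genes. Probe sets were named through the platform annotation, updated by gene ID to the TAIR10.1 RefSeq table; 13513 had 1 symbol, 503 several and 8730 none. Of the 13513, 13436 matched a locus.

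A log2 ratio used log2(signal + pseudocount), where the pseudocount was 10% and the brightness minimum 40% of the trimmed mean. Genes were counted as higher or lower at a log2 ratio of at least 1. Named are all members, every other expansin with a probe set and up to 2 measured genes on each side of 0 per wall list. Lists matched symbols and synonyms of the RefSeq table, checked by hand. The members and lists were chosen with earlier results of these data known, and markers, dim wall genes and flanking genes are named beyond this rule, after their values were seen. The size rule was tested on simulated data. The planted changes were past the rule and lay in probe sets at or above the trimmed mean on both arrays. Changes of dimmer genes, or as small as those of the members, were not planted. With a single ratio per gene, no genes of like pattern were sought. The software was matplotlib 3.10.9, statsmodels 0.14.6, scipy 1.17.1, pandas 2.3.3 and numpy 2.4.6 under Python 3.11.15.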

Additional observations from a re-analysis of the deposited data

How the results depend on the processing

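No paired analysis was possible because there was 1 array of each genotype. The alternatives were 3 scalings, 2 pseudocounts, 2 brightness minimums, removal of shared probe sets, other size rules and the mean. Of 40 alternative values for the 8 members, 39 moved by less than the local SD, and EXPA7 moved to -2.70 with a pseudocount of 1. The local SD is a spread among genes and a wide limit. EXPA20 went from 0.93 to 1.24 with a pseudocount of 1 and is still among the 39. The count of 0 members at least 2-fold higher was 1 (EXPA20) with a pseudocount of 1, and 2 at a log2 ratio of at least 0.5. The shoot median stayed between 0.37 and 0.42 in the alternatives listed, and was 0.31 with EXPA20 left out, an unplanned setting. With a minimum of 100% of the trimmed mean only EXPA4 and EXPA16 were left. Removal of shared probe sets took no member away, so it tested nothing for them. Dropping the minimum left the same 6 shoot genes, so it tested nothing for their median. Over the array, 136 probe sets were higher and 270 lower, and adding 1 gave 209 higher, adding 25% of the trimmed mean 75. They were 83 higher and 178 lower with a minimum of 100%, and 1099 and 1023 at a log2 ratio of 0.5, shifts that follow from how these settings are built. The median of the other expansins was -0.51 with the minimum of 100%, which leaves EXLA1 and EXLB1, and their mean was -0.21. The GH9 median of -0.23 was 0.10 with that minimum, over the 2 genes left, so its sign turned.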

Other observations

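The families here were chosen after their values were seen, and share the 2 arrays with all results above. TBL genes encode a family that includes O-acetyltransferases of wall polysaccharides. Of 45 listed, 10 were measured, with a median log2 ratio of -0.30 and none 2-fold apart. For 3 of them, TBL38, TBL36 and TBL26, only 1 array reached the minimum, which fixed the sign. Of the other 7, 6 were lower in GFP-TIE1-15, with a median of -0.26. Below 0 lay 48.5% of all measured probe sets, while 1.20% were at least 2-fold higher and 2.39% at least 2-fold lower. These shares also count probe sets with only 1 array at the minimum. TBL37 had 369.0 in GFP-TIE1-15 and 687.3 in wild type (-0.82), and TBL38 had 133.8 in GFP-TIE1-15 and 290.3 in wild type (-0.89).

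Synthases of the CSL family make the backbones of wall polysaccharides. Of 5 measured CSL genes, 4 were lower in the line, with a median of -0.27. Of all measured probe sets, 48.5% lay below 0. CSLC04, a xyloglucan backbone synthase, had 1050 in GFP-TIE1-15 and 1543 in wild type (-0.53), and CSLC6 had 285.8 in GFP-TIE1-15 and 214.4 in wild type (0.34). Among 4 measured GH9 endoglucanases, GH9C2 had 763.4 in GFP-TIE1-15 and 549.6 in wild type (0.44), and the other 3 lay between -0.31 and -0.21, with the sign of GH9B13 (-0.21) fixed by the filter. The median of the 4 was -0.23.

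Of 5 measured growth regulators, none was 2-fold apart. ARL, which promotes cell expansion downstream of brassinosteroid, had 641.4 in GFP-TIE1-15 and 1070 in wild type (-0.70). BRH1, a RING finger gene that brassinosteroid represses, had 761.9 in GFP-TIE1-15 and 1302 in wild type (-0.74). AN, which controls polar expansion of leaf cells, was at 0.19, and the gibberellin receptor genes GID1A and GID1B were at -0.12 and -0.07, the sign of GID1B being fixed by the filter.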
